A study of Mus musculus with 24 samples.

Results

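P19 embryonal carcinoma cells grown in suspension were compared with P19 cells grown as an attached monolayer, with the difference averaged over the stages labelled D1 and D2. P19 is a mouse teratocarcinoma line that keeps the transcription factor network of the early embryo and differentiates once its cells aggregate. All 12 RNA samples of the series enter: 3 of suspension culture at D1 (P19aD1), 3 of monolayer at D1 (P19mD1), 3 of suspension at D2 (P19aD2) and 3 of monolayer at D2 (P19mD2). Each RNA was read on both Affymetrix chips, MOE430A and MOE430B, which makes 24 arrays. The label texts do not spell out D. They give every sample the same line, alpha medium with fetal bovine and calf serum, and name no inducer, genetic change or attachment coating. They call the material clonal, so the comparison concerns a single cell line. They do not say whether the 3 replicates of a group were separate cultures, so p-values measure only the spread between these samples, which may be technical. The purpose, per the labels, was to look at early effects of aggregation on transcripts.

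Attachment to a dish gives cells a flat shape, focal adhesions and tense actin fibres. In spread cells of many types the coactivators YAP and TAZ enter the nucleus and, with TEAD factors, drive genes such as Ccn1 and Ccn2, while kinases of the Hippo pathway hold them back in crowded or rounded cells. Cells of the epiblast, which P19 cells resemble, respond to Nodal, Wnt and FGF signals by switching on genes of the primitive streak, the region of the gastrulating embryo where mesoderm and endoderm arise. In P19 cultures, aggregation is the usual first step towards neurons or muscle.

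Markers of the line were checked first. Of 12 embryonal carcinoma markers, 10 exceeded the median signal of their chip on all 12 arrays. Dppa2 exceeded it on 3 arrays and Zfp42 on 0. The summed signal of the 12 lay between 131069 and 168859 in suspension and between 144113 and 156680 in monolayer. Of markers of other cell types, Col1a2 of fibroblasts and Csf1r of blood cells exceeded the chip median on all 12 arrays. Thy1 of fibroblasts and Actc1 of muscle did so on 11, and Dcn of fibroblasts on 8. In visceral endoderm, Gata6 did so on 9 arrays, Hnf4a and Gata4 on 4, Sox17 on 2 and Ttr on 1. Tubb3 of neural cells did so on 9, Neurod1 of neural cells and Plac1 of trophoblast on 6, and Gata1 and Spi1 of blood on 5. Ptprc of blood and Myod1 of muscle did so on 1. Col1a1, Col3a1, Lum and Postn of fibroblasts, Tal1 and Hba-a1 of blood, Afp and Apoa1 of visceral endoderm, Elf5 and Tpbpa of trophoblast, Pax6 and Sox1 of neural cells and Myog, Myf5 and Myh3 of muscle stayed below the chip median on every array. The summed signals of 7 fibroblast markers ran from 2558 to 4983 in suspension and from 2804 to 4737 in monolayer, and those of 7 visceral endoderm markers from 2222 to 4323 in suspension and from 2692 to 3713 in monolayer. The sums of 6 blood markers ran from 2911 to 4069 in suspension and from 2684 to 3817 in monolayer. Those of 4 neural markers ran from 1422 to 2340 in suspension and from 1767 to 2974 in monolayer, and the groups overlapped for every cell type. In bulk RNA fewer cells of a type and less RNA per cell cannot be told apart.

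A small share of the tested probe sets passed the test of suspension against monolayer. With limma on the log2 scale, 68 of 26516 tested probe sets passed at a Benjamini-Hochberg adjusted p under 0.05, which is 0.256% of all. Of these, 31 were higher in suspension (0.117%) and 37 were lower (0.14%). An unadjusted p under 0.05 was found for 2125 probe sets, where 1326 are expected by chance. The 68 include 62 with a gene symbol, from 54 genes, 24 higher and 30 lower. For 28 of the 54 at least 1 further tested probe set did not pass. When each gene was represented by its brightest tested probe set, 47 of 12727 genes passed (0.369%), 21 higher (0.165%) and 26 lower (0.204%). The smallest called difference was 0.56 on the log2 scale, and the median standard error over all probe sets was 0.212. A signal is in arbitrary units, and its level is compared only within a probe set.

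All 68 pointed the same way at D1 and at D2. The calls were made on these same 12 values, so this direction and the separation of the samples follow in large part from the selection and are given as description. For 63 of them the 3 suspension and 3 monolayer samples did not overlap at either stage (1.42% of all tested probe sets did so). For 56 of them all 6 suspension values lay apart from all 6 monolayer values (0.72% of all tested probe sets did so). Tested alone, each stage gave 14 called probe sets.

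**Figure D1:**
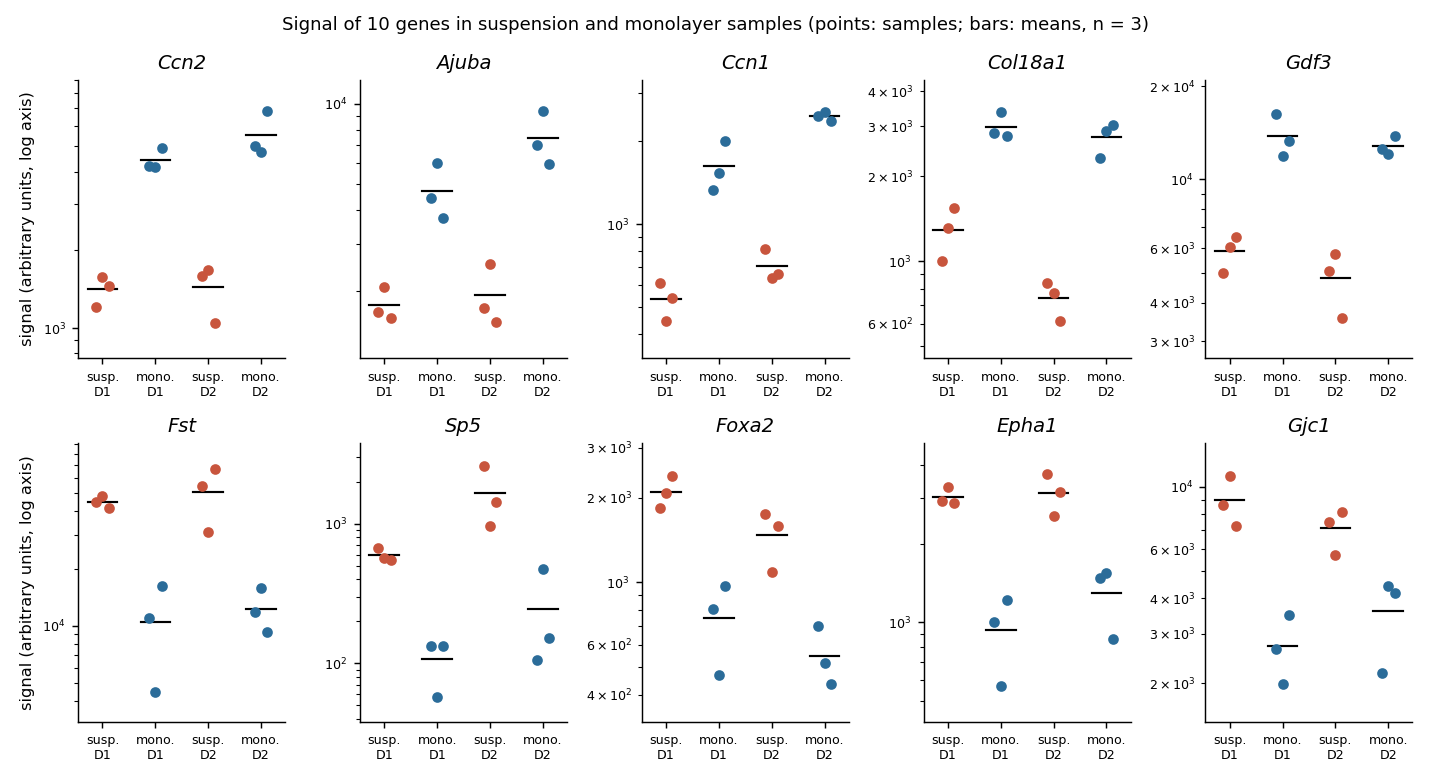
Signal per sample (arbitrary units, log axis) of 10 genes in suspension (red) and monolayer (blue) at D1 and D2; points are samples and bars are means of 3. In the 5 upper panels every suspension sample lies below every monolayer sample, as with Ccn2 at 1049 to 1679 against 4167 to 6842, and in the 5 lower panels every suspension sample lies above.

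Among the falls, Ccn2 and Ccn1, known targets of YAP and TAZ, had the lowest adjusted p. The activity of YAP and TAZ was not measured. Ccn2, a secreted matricellular protein gene used as a standard readout of YAP, read 1208, 1570 and 1445 in suspension at D1, against 4212, 4167 and 4933 in monolayer at D1. At D2 it read 1588, 1679 and 1049 in suspension, against 4998, 4744 and 6842 in monolayer. The cultures were far apart at both stages. The mean difference was -1.77 ± 0.14 on the log2 scale (SE; limma adjusted p = 0.000142), a 3.41-fold lower signal in suspension. Ccn1, its close relative, read 613, 444 and 541 in suspension at D1, against 1333, 1541 and 2005 in monolayer at D1. The D2 signals were 810, 638 and 662 in suspension, against 2471, 2558 and 2373 in monolayer. Ccn1 fell by 1.63 ± 0.14 on the log2 scale (limma adjusted p = 0.000147), and its other tested probe set differed by -1.25.

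Ajuba encodes a LIM protein of cell junctions that restrains the Hippo kinases. It read 1665, 2067 and 1582 in suspension at D1, against 4438, 5985 and 3739 in monolayer at D1. In the D2 samples it read 1724, 2526 and 1532 in suspension, against 6986, 9343 and 5959 in monolayer. Replicate 2 was the highest of its group in all 4 groups, and the cultures did not overlap. Ajuba fell 3.13-fold (log2 difference -1.65 ± 0.16, limma adjusted p = 0.000381).

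The angiomotin family, whose proteins bind YAP, moved in both directions. Amotl2 read 906 to 1371 over the 6 suspension samples and 2223 to 2764 over the 6 monolayer samples. It fell 2.22-fold (-1.15 ± 0.11, limma adjusted p = 0.00037). Amot, the founding member, read 4173, 2141 and 3769 in suspension at D1, against 1290, 912 and 1320 in monolayer at D1, and 5116, 2486 and 4083 in suspension at D2, against 1647, 1364 and 1152 in monolayer at D2. It rose 2.68-fold (1.42 ± 0.20, limma adjusted p = 0.00749) by 1 of its 3 probe sets. The others differed by 0.76 ± 0.19 and 0.16 ± 0.16 without passing. Amotl1, the remaining member, differed by -0.17 ± 0.13 and did not pass.

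Over a list of 25 YAP and TAZ targets, 18 were measured, 4 fell (Ccn2, Ccn1, Amotl2 and Ajuba) and 0 rose, against 0.204% and 0.165% of all genes. This list and those below were chosen with earlier results of these data known, so their counts and medians are given as description. The list median was -0.40, beside -0.02 for all genes, and 14 of the 18 lay below 0. Of all genes 46.2% lay above 0. Nuak2 (-0.70 ± 0.16), Ptpn14 (-0.66 ± 0.15) and Wwc1 (-0.54 ± 0.11) did not pass, and neither did Nt5e (1.22 ± 0.27), which lay on the other side of 0. Of 24 measured Hippo pathway members, 1 rose (Amot) and 2 fell (Amotl2 and Ajuba, which the target list holds too). Yap1 itself averaged 6009 ± 1124 in suspension and 6171 ± 1014 in monolayer (SD, n = 6 each), and differed by -0.04 ± 0.13. The list's median lay between -0.44 and -0.27 under 22 other settings of the processing.

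The promoter windows of 3 of these genes and of the Wnt target Sp5 are shown because these genes are known readouts of the YAP and Wnt pathways and hold the short sequences searched for. They come from RefSeq (GRCm38.p6), run from 250 bases before to 50 after the annotated start, and are written along the gene's strand. Capitals mark GGAATG on either strand, the core of a TEAD site, in the first 3, and CTTTGA on either strand, the core of a TCF and LEF site, in Sp5. The windows are chr3:145649936-145650235 (minus strand) for Ccn1, chr14:54577612-54577911 (minus strand) for Ajuba, chr9:102717554-102717853 (plus strand) for Amotl2 and chr2:70474673-70474972 (plus strand) for Sp5.
Ccn1: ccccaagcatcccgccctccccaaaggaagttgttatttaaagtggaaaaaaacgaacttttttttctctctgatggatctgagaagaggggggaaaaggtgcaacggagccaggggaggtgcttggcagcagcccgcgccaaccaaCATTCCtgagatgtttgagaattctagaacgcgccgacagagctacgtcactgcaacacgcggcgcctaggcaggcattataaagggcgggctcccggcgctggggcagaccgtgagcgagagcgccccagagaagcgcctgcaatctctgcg
Ajuba: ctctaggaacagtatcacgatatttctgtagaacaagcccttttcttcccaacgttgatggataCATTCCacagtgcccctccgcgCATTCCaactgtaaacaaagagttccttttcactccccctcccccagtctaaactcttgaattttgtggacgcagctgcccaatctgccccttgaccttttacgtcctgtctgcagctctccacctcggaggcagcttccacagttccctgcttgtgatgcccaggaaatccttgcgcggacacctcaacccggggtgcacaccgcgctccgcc
Amotl2: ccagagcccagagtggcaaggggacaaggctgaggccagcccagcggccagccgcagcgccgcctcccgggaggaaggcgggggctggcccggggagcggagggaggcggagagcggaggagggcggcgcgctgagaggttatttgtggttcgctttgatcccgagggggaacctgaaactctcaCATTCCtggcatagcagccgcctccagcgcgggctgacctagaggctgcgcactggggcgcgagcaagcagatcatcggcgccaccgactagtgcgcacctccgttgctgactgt
Sp5: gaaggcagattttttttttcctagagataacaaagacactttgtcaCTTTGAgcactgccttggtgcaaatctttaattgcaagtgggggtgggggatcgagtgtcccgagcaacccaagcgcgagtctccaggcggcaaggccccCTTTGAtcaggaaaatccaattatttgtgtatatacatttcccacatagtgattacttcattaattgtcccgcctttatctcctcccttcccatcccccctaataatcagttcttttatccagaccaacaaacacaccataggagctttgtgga

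Ccn1 and Amotl2 each held 1 GGAATG and Ajuba held 2, and Sp5 held 2 CTTTGA. A window was found for 24 of the 30 genes lower in suspension (35 windows) and for 18 of the 24 higher (28 windows). GGAATG occurred in 7.14% of the windows of the higher genes and in 20% of those of the lower genes, beside 14.7% of all 32851 windows. CTTTGA occurred in 21.4% of the windows of the higher genes and in 8.57% of those of the lower genes, beside 16% of all. The CArG box, the site of the actin-sensitive factor SRF, was in 1 window of the higher genes and in 0 of the lower ones, beside 1.63% of all. These are matches of letters, and no factor binding was measured.

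Genes of the actin cytoskeleton were lower where they passed. Tagln, which encodes the actin-binding protein transgelin, read 184, 441 and 640 in suspension at D1, against 874, 1076 and 1150 in monolayer at D1. Its D2 values were 202, 149 and 310 in suspension, against 714, 758 and 1355 in monolayer. The groups did not overlap, but the suspension signals lay near or below the chip median of 599.8, so the size of the fall is uncertain. Tagln differed by -1.59 ± 0.28 (limma adjusted p = 0.0313), and it passed in 2 of the 12 fits that leave out 1 sample each. Cald1, or caldesmon, read 973 to 2658 over the 6 suspension samples and 3717 to 5824 over the 6 monolayer samples. It fell 2.41-fold (-1.27 ± 0.18, limma adjusted p = 0.00828) by 1 of its 4 probe sets. The others differed by -1.57 ± 0.39, -0.95 ± 0.26 and -0.67 ± 0.35 without passing. Tpm1, a tropomyosin that coats actin filaments, read 1617 to 2647 in suspension and 3466 to 8615 in monolayer, and fell 2.31-fold (-1.21 ± 0.18, limma adjusted p = 0.00963). Its 4 probe sets all lay below 0, and 2 of them passed.

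Bcar1, the focal adhesion scaffold p130Cas, read 2074 to 2889 in suspension and 3116 to 6257 in monolayer. It fell by 0.80 ± 0.14 on the log2 scale (limma adjusted p = 0.0313), and its other tested probe set differed by -0.37 ± 0.16 without passing. Of 31 measured genes of the SRF and actin list, 3 fell and 0 rose, against 0.204% and 0.165% of all genes. The other 28 did not pass. The median was -0.21, and 27 of the 31 lay below 0. The share above 0 was 12.9% in the list, beside 46.2% of all genes. The lowest of those that did not pass was Fhl2 (-0.76 ± 0.26) and the highest was Zyx, encoding zyxin (0.57 ± 0.11, limma adjusted p = 0.0663). Actb averaged 85054 ± 6101 in suspension and 86932 ± 9917 in monolayer (SD, n = 6 each), a difference of -0.03 ± 0.11.

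Some genes of the extracellular matrix were lower in suspension. Col18a1 encodes collagen XVIII of basement membranes. It read 1004, 1315 and 1539 in suspension at D1, against 2840, 3362 and 2779 in monolayer at D1. At D2 it read 835, 772 and 616 in suspension, against 2324, 2892 and 3038 in monolayer. Both of its probe sets passed, with differences of -1.51 ± 0.14 (limma adjusted p = 0.000195) and -1.25 ± 0.17. Its difference was -1.20 at D1 and -1.82 at D2, with an interaction p of 0.037 before adjustment and no interaction call after it.

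Pcolce, an enhancer of procollagen processing, read 293 to 558 in suspension and 808 to 2135 in monolayer (-1.35 ± 0.21, limma adjusted p = 0.0141). The suspension signals lay below the chip median of 599.8, so the size of the fall is uncertain. The other tested Pcolce probe set differed by -1.23 ± 0.32 without passing. Bcam, a cell surface receptor for laminin, read 559 to 1075 in suspension and 1402 to 2083 in monolayer (-1.11 ± 0.17, limma adjusted p = 0.00963). Hs6st1, which adds sulfate to heparan sulfate chains, fell 2.09-fold. Sparc, a matricellular protein gene, passed by 1 of its 3 probe sets (-0.89 ± 0.12, limma adjusted p = 0.00707), and its brightest one differed by -0.59 ± 0.13 without passing. Of 18 measured basement membrane and matrix genes, 1 fell (Col18a1) and 0 rose, against 0.204% and 0.165% of all genes. Their median was -0.06. Fibronectin, Fn1, lay on the other side at 0.66 ± 0.14 (limma adjusted p = 0.0776, or 0.0219 in the wash batch block fit). None of 11 measured integrin subunits passed, and their differences ran from -0.24 to 0.26.

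Further falls were of genes for lipoprotein receptors and their partners, picked after their values were seen and from no fixed list. Lrp2 encodes megalin, an endocytic receptor of absorptive epithelia. Its called probe set read 639, 722 and 626 in suspension at D1, against 1725, 2428 and 1446 in monolayer at D1. The D2 signals were 534, 799 and 432 in suspension, against 2172, 3291 and 2289 in monolayer. It fell 3.31-fold (-1.73 ± 0.18, limma adjusted p = 0.000439). A second probe set differed by -1.84 ± 0.43 without passing, and the brightest, on MOE430B, by 0.10 ± 0.21, so the probe sets disagreed. Lrpap1, a chaperone of the receptors of this family, fell by 0.79 ± 0.15 on the log2 scale (limma adjusted p = 0.0416) by 1 of its 4 probe sets. The others differed by -0.56, -0.46 and -0.24 without passing. Clu, or clusterin, a secreted chaperone that megalin takes up, passed by 1 of its 3 probe sets (-1.58 ± 0.28, limma adjusted p = 0.0332). All 3 of them lay below 0, and the called one averaged 432 in suspension, below the chip median of 599.8. Lpl, lipoprotein lipase, read 904 to 1424 in suspension and 1749 to 3740 in monolayer (-0.98 ± 0.17, limma adjusted p = 0.0313).

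Steap3, an iron reductase of the transferrin cycle, had the largest fall of a named gene. It read 120, 71.4 and 184 in suspension at D1, against 809, 1305 and 758 in monolayer at D1. In the D2 samples it read 174, 121 and 88.9 in suspension, against 669, 1119 and 817 in monolayer. The suspension signals lay far below the chip median of 599.8 and were not tested against background. The difference of -2.44 ± 0.29 (limma adjusted p = 0.00184) is therefore uncertain in size. The other tested Steap3 probe set differed by -1.13 ± 0.26 and did not pass (limma adjusted p = 0.118).

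Of the Nodal and TGF-beta list, the genes past the test were Fst and Tgfbr3, which rose, and Gdf3, which fell. Fst encodes follistatin, which binds activin and keeps it from its receptors. Its brighter probe set read 44919, 48246 and 41631 in suspension at D1, against 10968, 4472 and 16107 in monolayer at D1. Its D2 values were 54342, 31021 and 66636 in suspension, against 11770, 15781 and 9289 in monolayer. All 6 suspension samples lay above all 6 monolayer samples. Fst rose 4.38-fold (2.13 ± 0.26, limma adjusted p = 0.00138), and the probe set on the other chip gave 1.86 ± 0.28 (adjusted p = 0.00963).

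Gdf3, a ligand of the same family made by pluripotent cells, read 4999, 6038 and 6531 in suspension at D1, against 16196, 11912 and 13317 in monolayer at D1. At D2 it read 5046, 5762 and 3566 in suspension, against 12566, 12087 and 13841 in monolayer. It fell 2.50-fold (-1.32 ± 0.14, limma adjusted p = 0.000439), and by 0.83 ± 0.14 on the log2 scale on the other chip (adjusted p = 0.0292). Tgfbr3, the coreceptor betaglycan, read 16993 to 25958 in suspension and 7938 to 12969 in monolayer and rose 1.74-fold (0.80 ± 0.14, limma adjusted p = 0.0294). The other tested Tgfbr3 probe set differed by 0.26 ± 0.15 and did not pass. Of 24 measured genes of the list, 2 rose and 1 fell, against 0.165% and 0.204% of all genes. The other 21 did not pass, and the list median was -0.04. Nodal differed by 0.16 ± 0.13 and its inhibitor genes Lefty1 and Lefty2 by -0.16 ± 0.27 and 1.25 ± 0.54, none past the test.

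Genes of the primitive streak list lay mostly higher in suspension. Of 27 listed, 18 were measured, 5 rose (Fst, Foxa2, Amot, Sp5 and Wnt8a), 0 fell and 13 did not pass, against 0.165% and 0.204% of all genes. Because the list was chosen with earlier results of these data known, its counts and median are description. The median was 0.95, beside -0.02 for all genes, and 16 of the 18 lay above 0, beside 46.2% of all genes. Fst, Amot, Sp5 and Wnt8a belong to other lists described here as well, so the counts of these lists are not separate. The median was 0.51, 1.31 and 0.78 within the 3 wash batches described below, and it lay between 0.74 and 1.06 under the 22 other settings.

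Sp5 is a transcription factor gene that Wnt signalling switches on directly. It read 670, 571 and 548 in suspension at D1, against 132, 57.7 and 133 in monolayer at D1. The D2 signals were 2603, 965 and 1441 in suspension, against 106, 473 and 151 in monolayer. All monolayer samples and 2 suspension samples lay below the chip median of 599.8, and no detection was tested, so the 5.11-fold rise (2.35 ± 0.34, limma adjusted p = 0.00828) is uncertain in size.

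Foxa2, a pioneer transcription factor of the node and the endoderm, read 1833, 2070 and 2390 in suspension at D1, against 804, 468 and 972 in monolayer at D1. In the D2 samples it read 1746, 1092 and 1581 in suspension, against 698, 516 and 436 in monolayer. It rose 2.65-fold (1.41 ± 0.19, limma adjusted p = 0.00575). Wnt8a, a Wnt ligand of the streak, read 1222 to 2195 in suspension and 251 to 809 in monolayer (1.27 ± 0.23, limma adjusted p = 0.0393), and passed in 3 of the 12 fits that leave out 1 sample. Members that did not pass include Fgf8 (0.95 ± 0.19, limma adjusted p = 0.0687), Eomes (0.95 ± 0.25) and Cdx2 (1.87 ± 0.70). In the wash batch block fit Eomes had a limma adjusted p of 0.0276. Gsc, Mixl1 and Mesp1 differed by 0.13, 0.32 and -0.07, each within 2 standard errors of 0.

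Beyond the streak, the DNA-binding partners of beta-catenin that passed were Lef1, which rose, and Tcf7l1, which fell. Lef1, an activator of Wnt targets that is itself such a target, read 6066, 6990 and 4815 in suspension at D1, against 2785, 1565 and 2638 in monolayer at D1. Its D2 values were 6405, 5736 and 6221 in suspension, against 5003, 3047 and 3210 in monolayer, and the highest monolayer sample at D2 exceeded the lowest suspension sample at D1. It rose 2.04-fold (1.03 ± 0.18, limma adjusted p = 0.0276). Tcf7l1, which represses Wnt targets in pluripotent cells, read 2215 to 4139 in suspension and 4332 to 5322 in monolayer and fell by 0.78 ± 0.14 on the log2 scale (limma adjusted p = 0.0294). Of 15 measured Wnt targets, 2 rose (Sp5 and Lef1) and 0 fell, against 0.165% and 0.204% of all genes. Their median was 0.10. Axin2 differed by 0.70 ± 0.18 and did not pass. Of 11 measured Wnt ligands, 1 rose (Wnt8a), and Wnt5b differed by 1.07 ± 0.23 (limma adjusted p = 0.0962). The streak list holds Sp5 and Wnt8a too.

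**Figure D2:**
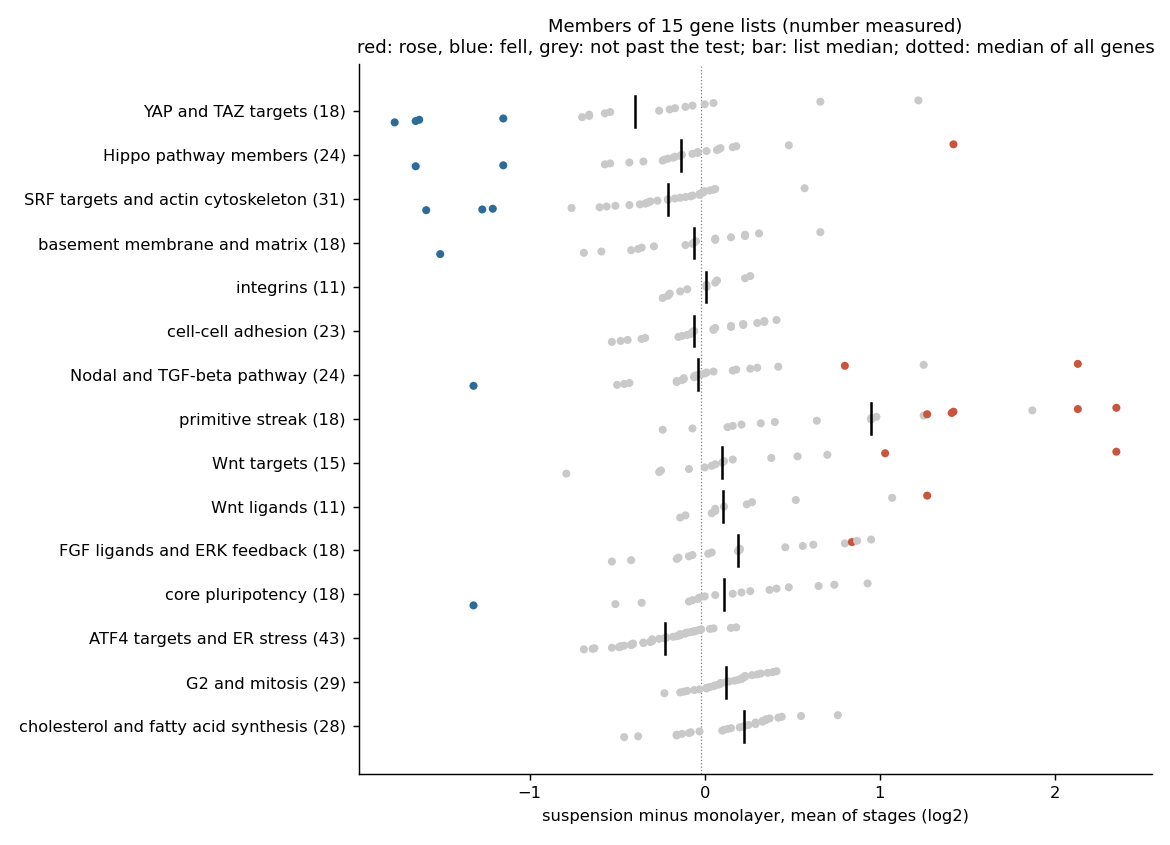
Difference between suspension and monolayer (mean of stages, log2) for each measured member of 15 gene lists; red points rose, blue points fell, grey points did not pass, black bars are list medians and the dotted line is the median of all genes (-0.02). The primitive streak median lies at 0.95 with 5 red points, and the YAP and TAZ median at -0.40 with 4 blue points.

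Epha1, Gjc1 and Prickle1, which act at contacts between cells, rose, each as the 1 called member of its list (0.165% of all genes rose). Epha1, an Eph receptor tyrosine kinase, read 2921, 3313 and 2861 in suspension at D1, against 997, 569 and 1221 in monolayer at D1. At D2 it read 3694, 2547 and 3171 in suspension, against 1471, 1546 and 862 in monolayer. It rose 2.81-fold (1.49 ± 0.19, limma adjusted p = 0.00375), while its other 2 probe sets differed by 0.44 and 0.34 without passing. Of 14 measured Eph receptors and ephrins 13 did not pass, and the list's median was 0.03.

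Gjc1, the gap junction protein connexin 45, read 8618, 10939 and 7249 in suspension at D1, against 2641, 1983 and 3489 in monolayer at D1. The D2 signals were 7506, 5724 and 8096 in suspension, against 2174, 4429 and 4183 in monolayer. It rose 2.56-fold (1.36 ± 0.20, limma adjusted p = 0.00707), and its other probe set differed by 0.62 ± 0.16 without passing. The median of the 5 measured connexins was -0.37. Prickle1, a planar polarity protein gene, read 3374 to 5244 in suspension and 1404 to 2403 in monolayer and rose 2.27-fold (1.18 ± 0.14, limma adjusted p = 0.00184). Of its 3 probe sets, 1 lay on the other side of 0, at -0.82. Of 19 measured planar polarity genes 18 did not pass. Among them Dact1, an antagonist of Wnt signalling, differed by 0.64 ± 0.13 (limma adjusted p = 0.0714, or 0.0276 in the wash batch block fit).

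The classical adhesion genes did not pass. Cdh1, E-cadherin, averaged 2577 ± 525 in suspension and 3367 ± 1010 in monolayer (SD, n = 6 each), a difference of -0.34 ± 0.19. Cdh2, N-cadherin, differed by 0.22 ± 0.16. Epcam averaged 18992 ± 1690 in suspension and 14204 ± 544 in monolayer (0.41 ± 0.09, limma adjusted p = 0.0811). Of 23 measured genes of cell-cell adhesion, 0 rose and 0 fell by limma after adjustment, and the differences ran from -0.53 to 0.41. An unadjusted limma p under 0.05 was found for 6 of them, and for 1112 of all 12727 genes.

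Galnt6, which starts mucin-type sugar chains, was the riser whose stages differed most. It read 3161, 3192 and 2813 in suspension at D1, against 652, 432 and 406 in monolayer at D1. In the D2 samples it read 1734, 1709 and 1738 in suspension, against 1548, 1184 and 1044 in monolayer. The mean difference was 1.42 ± 0.22 (limma adjusted p = 0.00828), made of 2.41 at D1 and 0.44 at D2. Monolayer signals at D1 lay below the chip median of 846.4, so the size of the D1 difference is uncertain. The interaction had an unadjusted p of 0.00037 and did not pass after adjustment.

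**Figure D3:**
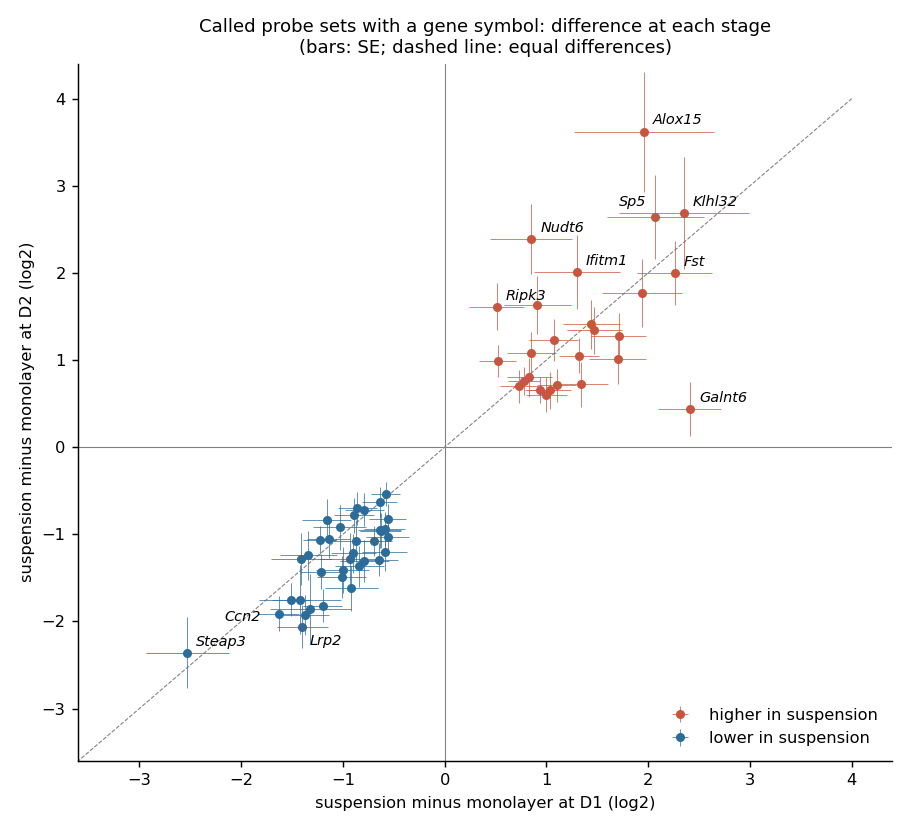
Difference between suspension and monolayer at D1 (horizontal, log2) and at D2 (vertical, log2) for the called probe sets that have a gene symbol, with SE bars; red is higher and blue is lower in suspension, and the dashed line marks equal differences. All points lie in the upper right or lower left, Galnt6 lies far below the line at 2.41 and 0.44, and Nudt6 and Alox15 lie above it.

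No probe set passed the test of an interaction between culture and stage. With limma the lowest adjusted p was 0.836, 0 of 26516 probe sets were called, 966 had an unadjusted p under 0.05, and 1326 are expected by chance. Among the 68 called for culture, 6 had an unadjusted interaction p under 0.05. In size, 25 of the 37 lower probe sets and 13 of the 31 higher ones differed more at D2 than at D1, which was not tested further. Nudt6, a Nudix family gene, read 1330, 2126 and 2085 in suspension at D1, against 1219, 950 and 741 in monolayer at D1, and 1219, 1671 and 1630 in suspension at D2, against 257, 149 and 197 in monolayer at D2. Its differences were 0.85 at D1 and 2.39 at D2, and it was among those 6. Its monolayer signals at D2 lay far below the chip median of 846.4, and its other probe set differed by 0.39 ± 0.20 without passing. Ripk3, a kinase of necroptosis, differed by 0.51 at D1 and 1.61 at D2, with suspension signals of 670 to 1151 and monolayer signals of 203 to 647, mostly below the chip median of 599.8.

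Inhibitors of growth factor signalling that passed were Spry2 and Dusp1. Spry2, an inhibitor of receptor tyrosine kinase signalling, read 2866 to 5470 in suspension and 1560 to 2744 in monolayer and rose 1.79-fold (0.84 ± 0.15, limma adjusted p = 0.0363). Dusp1, a phosphatase of MAP kinases and an immediate early gene, read 3349 to 5379 in suspension and 1983 to 2949 in monolayer (0.71 ± 0.13, limma adjusted p = 0.0424). Of 18 measured FGF ligands and ERK feedback genes, 1 rose (Spry2) and 0 fell, against 0.165% and 0.204% of all genes. In this list 12 lay above 0, beside 46.2% of all genes, and the median was 0.19. Dusp4 (0.87 ± 0.20) and Dusp6 (0.56 ± 0.15), further ERK phosphatases, did not pass, though Dusp4 had a limma adjusted p of 0.0277 in the wash batch block fit.

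The core factors of pluripotency did not pass. Pou5f1 averaged 31714 ± 2841 in suspension and 32085 ± 5896 in monolayer (SD, n = 6 each), a difference of 0.00 ± 0.11 on the log2 scale. Sox2 averaged 6272 ± 805 in suspension and 6485 ± 990 in monolayer (-0.04 ± 0.11), and Nanog 6732 ± 1122 in suspension and 6065 ± 2274 in monolayer (0.21 ± 0.13). Of 18 measured genes of the list, 1 fell (Gdf3) and 0 rose, against 0.204% and 0.165% of all genes. The list median was 0.11. Utf1, a chromatin protein gene of these cells, averaged 15970 ± 2571 in suspension and 22751 ± 3577 in monolayer (-0.51 ± 0.11, limma adjusted p = 0.112). Dppa4 differed by 0.65 ± 0.13 (limma adjusted p = 0.0687). Eprn, a long noncoding RNA of early embryonic cells, read 1440 to 2770 in suspension and 3932 to 6175 in monolayer and fell 2.45-fold (-1.29 ± 0.20, limma adjusted p = 0.00828).

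Chromatin and cell cycle regulators were among the smaller called differences. Phc2, a Polycomb subunit, passed by both of its called probe sets (0.77 ± 0.11 and 0.80 ± 0.11), and the brighter one read 3719 to 4575 in suspension and 1988 to 2903 in monolayer. Hmgb3, a chromatin protein gene, read 7353 to 13204 in suspension and 4718 to 6295 in monolayer (0.75 ± 0.13). Sirt1, a deacetylase, fell by 0.70 ± 0.13 on the log2 scale, Ccnd3, or cyclin D3, by 0.56 ± 0.10 and Plagl1, an imprinted zinc finger factor, by 0.63 ± 0.12. The other Plagl1 probe set differed by 0.06. The adjusted p of these 3 falls in limma was 0.0363 for Sirt1, 0.0292 for Ccnd3 and 0.0438 for Plagl1.

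In metabolism and lipid handling, Degs1, which makes ceramide, read 8838 to 11345 in suspension and 3553 to 6262 in monolayer (0.90 ± 0.13, limma adjusted p = 0.00828). The brighter Degs1 probe set differed by 0.56 ± 0.11 and did not pass (limma adjusted p = 0.0535). Aldh2, a mitochondrial aldehyde dehydrogenase, rose 1.95-fold by 1 of its 3 probe sets (the others 0.29 and 0.37) and Ptgis, prostacyclin synthase, fell 1.70-fold. Alox15, a lipoxygenase, had the largest rise of a named gene, 2.79 ± 0.49 (limma adjusted p = 0.0313). It read 1417, 202 and 1107 in suspension at D1, against 341, 90.5 and 81.5 in monolayer at D1, and 2551, 578 and 1706 in suspension at D2, against 58.0, 98.3 and 44.2 in monolayer at D2. At D1 the cultures overlapped, and every monolayer sample lay below the chip median of 599.8.

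In Alox15, Klhl32 and Ifitm1 replicate 2 was the lowest suspension sample at both stages. The same held for called probe sets of other risers, among them Amot, Prickle1, Spry2, Aldh2, Ripk3 and Grsf1. Klhl32, a Kelch family gene, read 5226, 1135 and 3508 in suspension at D1, against 1037, 212 and 388 in monolayer at D1, and 7423, 1526 and 5374 in suspension at D2, against 715, 265 and 706 in monolayer at D2. Ifitm1, an interferon-inducible membrane protein gene, read 4259, 1613 and 4726 in suspension at D1, against 1518, 755 and 1749 in monolayer at D1, and 9904, 4018 and 8907 in suspension at D2, against 2177, 1368 and 1716 in monolayer at D2. Klhl32 differed by 2.52 ± 0.45 and Ifitm1 by 1.66 ± 0.30. The other 2 tested Klhl32 probe sets differed by 0.05 ± 0.39 and -0.03 ± 0.28, so the probe sets disagreed. In limma Alox15, Klhl32 and Ifitm1 passed in 3 or 4 of the 12 fits that leave out 1 sample.

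The remaining called genes were smaller or of less settled role. Irak1bp1 fell 1.96-fold, Trim2, a ubiquitin ligase, fell by 3 called probe sets of 5 (1 of the 5 lay at 0.37), and Fkbp9, a chaperone of the endoplasmic reticulum, fell 2.07-fold. Nudt4 passed by 1 of 2 probe sets (-0.90 ± 0.16) and Tmem47 fell by 0.76 ± 0.13 on the log2 scale. Grsf1, an RNA-binding protein gene of mitochondria, rose 1.76-fold by 1 of its 4 probe sets, and Dipk2a 2.22-fold by 1 of 2. The 6 called probe sets without a gene symbol are not described.

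Lists of stress, growth and metabolism had no called member by limma. The ATF4 and ER stress list had 43 measured genes, 10 of them at an unadjusted p under 0.05, and 39 lay below 0. Its median was -0.23 as the average of stages, 0.03 at D1 and -0.46 at D2, and 0.00, -0.45 and -0.21 in the 3 wash batches. Hsp90b1, an ER chaperone gene, had its lowest adjusted p (0.147 in limma), with 10273 ± 1569 in suspension and 13941 ± 3427 in monolayer (SD, n = 6 each). Among 29 genes of G2 and mitosis 23 lay above 0 (median 0.12, 4 at an unadjusted p under 0.05), with Mki67 at 0.41 ± 0.10. Among 28 cholesterol and fatty acid genes 20 lay above 0 (median 0.23, 9 at an unadjusted p under 0.05), with Hmgcs1 at 0.76 ± 0.19. Among 28 hypoxia and glycolysis genes 22 lay above 0 (median 0.18, 1 at an unadjusted p under 0.05). Beside these lists, 46.2% of all genes lay above 0, and 1112 of 12727 had an unadjusted limma p under 0.05.

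No control signal differed between the cultures at an adjusted p under 0.05, and the 18S signals were the nearest to it. The 18S ribosomal control had a median of 58110 in suspension and 38100 in monolayer on MOE430A (3′ probe set), and the ranges overlapped, at 43000 to 68290 in suspension and 11310 to 60140 in monolayer. It was 1.73-fold higher in suspension (two-sided exact permutation test within stages over 400 arrangements, p = 0.03, and 0.06 after adjustment over 10 control tests). The middle 18S probe set was 2.33-fold higher (exact permutation p = 0.015, adjusted 0.06), and MOE430B gave 1.69-fold and 2.37-fold. The smallest p these arrangements allow is 0.005. For beta-actin, the ratio of the 3′ to the 5′ control signal, a sign of RNA length, had a median of 1.22 in suspension and 1.07 in monolayer on MOE430A (exact permutation p = 0.085), and was 1.15-fold higher in suspension on MOE430B (exact permutation p = 0.02, adjusted 0.06). The Gapdh ratio differed by 1.02-fold on MOE430A and 0.95-fold on MOE430B. Signals of the B1 repeat control were 0.85-fold and 0.82-fold (exact permutation p = 0.33 and 0.26). The part of these values in the gene differences was not tested.

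The array records give a fluidics station and a time for each array but name no batch. Grouped by station, with a gap over 60 minutes between recorded times starting a new run, the arrays of each chip fell into 3 batches. These inferred groups are called wash batches here, and each held 1 sample of every group. All 68 called probe sets had the same direction in all 3, as did 31.8% of all tested probe sets. The batch values are parts of the mean on which the 68 were called, so this is a description too. Ccn2 differed by -1.65, -1.46 and -2.19 within the batches, Fst by 1.71, 2.59 and 2.10, and Sp5 by 2.34, 2.43 and 2.30. With the batch as a block limma called 102 probe sets, 51 higher and 51 lower, including 67 of the 68. The third batch, the last to be washed, held replicate 3 of every group. Without this batch 14 passed, 6 higher and 8 lower, and 12 of them were among the 68. Steap3, Ccn2, Lrp2, Ajuba, Ccn1, Col18a1, Gdf3, Amotl2, Degs1, Epha1 and Fst were the named genes that still passed. Sp5 differed by 2.38 there (adjusted p = 0.201 in limma) and Foxa2 by 1.36 (adjusted p = 0.132), with 4 fewer samples.

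**Figure D4:**
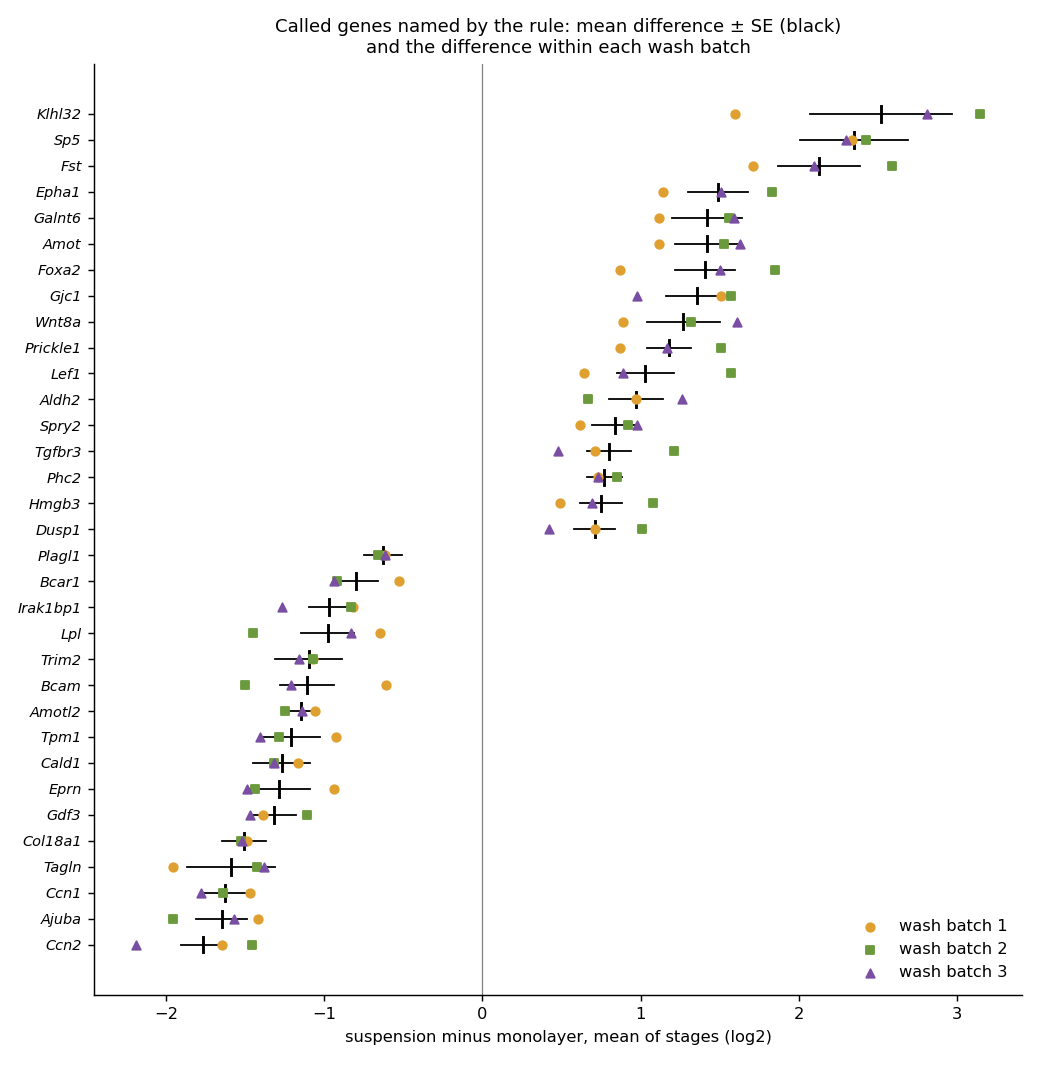
Difference between suspension and monolayer (mean of stages, log2) for the 33 called genes taken by the naming rule: black marks with bars are the fitted mean ± SE, and coloured symbols are the differences within wash batches 1, 2 and 3. Every symbol lies on the same side of 0 as its mean, and batch 1 gave the smallest difference for Foxa2, at 0.87.

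The number of calls depended on single samples. Limma called 36 probe sets without P19aD1 replicate 1, 45 without P19aD1 replicate 3, and 40 without P19aD2 replicate 1 or P19aD2 replicate 3. It called 45 without P19mD1 replicate 2, 42 without P19mD1 replicate 3, 44 without P19mD2 replicate 2 and 37 without P19mD2 replicate 3. The other 4 fits gave 48 to 79. Of the 68 probe sets, 30 passed in all 12 such fits. Among the genes described above these were Ccn2, Ccn1, Ajuba, Amotl2, Amot, Cald1, Tpm1, Col18a1, Bcam, Hs6st1, Sparc, Lrp2, Steap3, Fst, Gdf3, Sp5, Foxa2, Epha1, Gjc1, Prickle1, Galnt6, Eprn, Irak1bp1, Trim2, Phc2, Degs1 and Dipk2a, each by at least 1 probe set. Pcolce and Fkbp9 passed in 11, Nudt6 in 6, Lef1 and Bcar1 in 5, and Tgfbr3, Lpl, Nudt4, Aldh2 and Klhl32 in 4. All the others passed in 1 to 3.

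**Figure D5:**
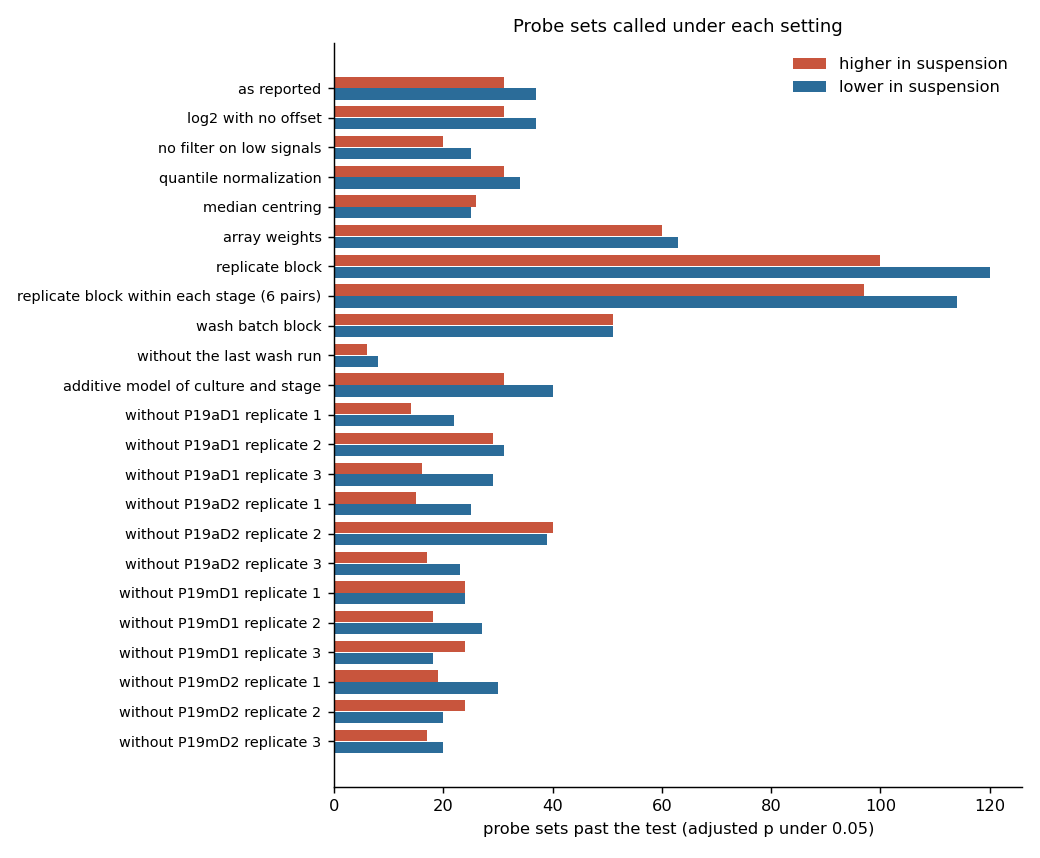
Number of probe sets higher (red) and lower (blue) in suspension past the test, as reported (31 and 37) and under each other setting. The lowest counts, 6 and 8, are those without the last wash run.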

How the data were processed

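Each array's table holds 1 linear signal intensity per probe set, which the authors computed with MAS5 (per the submitters' processing notes; version not given). The deposited intensities had a 2% trimmed mean of 1501 on MOE430A arrays and 1500 on MOE430B arrays, and that scaling was kept. Median signals spanned 510.6 to 636.7 on MOE430A, and 758.9 to 923.4 on MOE430B. The number of arrays limits the precision.

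Signals became log2(signal + the 10th percentile of the chip), with offsets of 51.0 and 108.1, so folds of low genes are understated. A probe set was tested if 3 of 12 arrays exceeded the chip median (599.8 and 846.4), which left 12689 and 13827. Probe sets on both chips were counted once, and controls were left out. limma 3.58.1 in R 4.3.3 fitted 1 mean per group with a variance trend. Two-sided p-values were adjusted (Benjamini-Hochberg) over both chips, with a threshold of 0.05. The fit was tested on simulated data.

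Of the annotated probe sets 35067 had 1 symbol, 936 several and 9262 none. A gene is represented by its brightest tested probe set. Named were up to 14 rises and 14 falls past the test, without overlap at either stage and with a higher culture mean above the chip's 75th percentile (1719 and 1973), the 3 members of each of 38 lists with the lowest adjusted p, genes past the interaction test, and Pou5f1, Nanog, Sox2, Cdh1, Cdh2, Yap1, Ccn1, Ccn2 and Actb. Other called genes and list members were named after their values were seen. The members and lists were chosen with earlier results of these data known. Wash batches were inferred from the fluidics station and recorded time of each array, with a gap over 60 minutes starting a new run. The 22 other settings covered the offset, the filter, normalization, array weights, blocks, batches, an additive model and each sample left out.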

Additional observations from a re-analysis of the deposited data

How the results depend on the processing

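Of the processing alternatives, no offset gave 68 probe sets for culture, quantile normalization 65, median centring 51, the additive model 71 and a wash batch block 102. With no filter on low signals 45 passed, as more probe sets shared the adjustment, and with array weights 123. Without the last wash run 14 passed, with 4 samples fewer. Leaving out each sample in turn gave 36 to 79. The interaction test gave 0 under each of the 21 settings it was run under.

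A replicate block raised the number called to 220 (100 higher, 120 lower), among them all 68. A replicate block within each stage, chosen after seeing the data, gave 211. Of the 90 genes taken by the naming rule that did not pass, 20 passed with the replicate block, among them Eomes (adjusted p = 0.00864 in limma), Fgf8, Epcam, Dact1, Fn1, Dppa4, Utf1, Axin2, Dusp4, Wnt5b and Hsp90b1, and 5 with the wash batch block. The labels do not say that equal numbers were paired. Deviations of same-numbered suspension and monolayer samples correlated between 0.147 and 0.388 on MOE430A, and between 0.032 and 0.155 on MOE430B. They were at or under 0.1 in 2 of 12 cases, so a pairing was not taken as given. In 11 of 12 cases a sample correlated best with its own number, a hint from the data and not from the design. Replicate number and wash batch were the same at D1, and replicate 3 of every group lay in wash batch 3. For those samples a shared number and a shared wash batch cannot be told apart.

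Of the 33 called genes taken by the naming rule, none reversed direction under the 22 other settings. The call was lost by 25 of them without the last wash run, 11 with no filter, 6 after median centring, 1 after quantile normalization, 1 in the additive model and 4 to 13 when a sample was left out. The cause was not tested. The medians of the streak, YAP, SRF and ATF4 lists kept their sign under all 22, and those of the integrin, cell-cell adhesion and Nodal lists changed sign under 12, 6 and 2. Low signals limit the sizes given for Steap3, Sp5, Tagln, Alox15, Nudt6, Klhl32, Ripk3, Pcolce, Clu and Galnt6, among others.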
